A study of Mus musculus with 6 samples.

Results

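Bcr and Abl1 are the mouse counterparts of the genes joined in the fusion kinase BCR-ABL, and Abl2 is the closest kinase relative of Abl1. The members were all probe sets whose only gene symbol in the platform annotation was Bcr, Abl1 or Abl2. The rule found 4 of the 35557 probe sets of the deposited table, 2 for Bcr (10363983 and 10364009), 1 for Abl1 (10471201) and 1 for Abl2 (10350823), and all 4 carried values. Bcr (Entrez gene 110279) lies on chromosome 10 at 75060560 to 75184923, Abl1 (11350) on chromosome 2 at 31688244 to 31807093 and Abl2 (11352) on chromosome 1 at 156558590 to 156649619, in assembly GRCm38.p6 of RefSeq.

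RNA came from 6 mouse samples of marrow cells sorted as Lin-c-Kit+Sca-1+, 2 arrays in each of 3 groups. Per the labels, the mice were C57BL/6 (B6) aged 8 weeks, donors were given 5-fluorouracil, and their marrow was transduced with a retrovirus and moved into B6 recipients that were sampled on day 14. HSC arrays held cells without BCR-ABL, from wild-type donors and the GFP-only virus. LSC arrays held GFP-positive cells with BCR-ABL and GFP from wild-type donors, and Alox5-/- LSC arrays held cells with the same virus from donors lacking the 5-lipoxygenase gene Alox5. All groups shared the 5-fluorouracil, the transduction, GFP and the transplantation. Vector cells of Alox5-/- donors were not analysed here. Replicates are called biological in the titles, but how many animals stood behind each is not given in the sources used here, so p-values measure the spread between these samples. Neither the promoter of the construct nor the species of its BCR-ABL sequence is given in those sources.

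Bcr encodes a large signalling protein with a coiled-coil oligomerization domain, a serine/threonine kinase activity and a GTPase-activating domain for Rac. Abl1 and Abl2 encode the ABL family of cytoplasmic tyrosine kinases, which link growth factor and integrin signals to the actin cytoskeleton, and Abl1 also acts in the nuclear response to DNA damage. In chronic myeloid leukaemia the front part of BCR is joined to most of ABL1, and the coiled coil holds the kinase in a constantly active state. Abl2 takes no part in that fusion.

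The 250 bases before the RefSeq start of each endogenous gene are shown as the sequence next to its own start of transcription, on the plus strand of GRCm38.p6, with the GC box in capitals (GGGCGG, or CCGCCC on the other strand, with overlapping matches counted separately). The windows are chr10:75060646-75060895 for Bcr, chr2:31759689-31759938 for Abl1, the first of 2 starts listed, and chr1:156558537-156558786 for Abl2. Each overlaps the annotated span of its gene, whose outermost transcript starts further upstream than the start used here. The Abl1 span begins at 31688244, much further before its window than the spans of Bcr (75060560) and Abl2 (156558590). The Abl1 window thus describes a start inside the gene, and the other listed start is not shown.
Bcr: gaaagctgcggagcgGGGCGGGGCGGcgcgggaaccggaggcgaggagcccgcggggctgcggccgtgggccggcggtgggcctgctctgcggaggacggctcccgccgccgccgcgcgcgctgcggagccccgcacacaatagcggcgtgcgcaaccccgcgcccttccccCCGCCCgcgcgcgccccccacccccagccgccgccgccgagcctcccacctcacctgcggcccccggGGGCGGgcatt
Abl1: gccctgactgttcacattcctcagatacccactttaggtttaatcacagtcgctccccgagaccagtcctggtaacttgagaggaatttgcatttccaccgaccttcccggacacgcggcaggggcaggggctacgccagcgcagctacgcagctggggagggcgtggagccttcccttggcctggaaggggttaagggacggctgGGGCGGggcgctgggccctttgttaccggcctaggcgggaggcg
Abl2: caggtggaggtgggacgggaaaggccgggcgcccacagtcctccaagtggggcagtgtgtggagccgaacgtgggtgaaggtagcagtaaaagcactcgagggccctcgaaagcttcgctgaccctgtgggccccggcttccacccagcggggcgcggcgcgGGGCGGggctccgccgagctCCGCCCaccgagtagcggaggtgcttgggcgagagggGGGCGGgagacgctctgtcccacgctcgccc
The 3 windows were GC-rich, with 82.8% G and C for Bcr, 63.2% for Abl1 and 71.6% for Abl2, against a median of 52.4% over all 32851 RefSeq windows of this length. Bcr held 4 GC boxes, Abl2 held 3 and Abl1 held 1, and 32.7% of all windows held at least 1. The STAT-type motif TTCNNNGAA, which reads the same on both strands, had 0 matches in the 3 windows and occurred in 7.02% of all windows, which says only that these letters were not in these windows.

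The deposited value is a score whose unit, log base and direction are not stated. It ran from 0 to 62.1, and 33.5% to 53.7% of values per array exceeded 16, the ceiling of log2 intensities from a 16-bit scanner. Genes that nearly every cell uses (Actb, Eef1a1 and ribosomal protein genes, 180 probe sets) had a median score of 11.4, below the 16.1 of olfactory receptor genes (1034 probe sets), which marrow is not known to use, and the 15.6 of all probe sets. Actb itself lay between 5.31 and 9.97. Higher scores are therefore not read as more RNA, levels are not compared between genes, and no fold change is given. Array medians ran from 14.5 for Alox5-/- LSC replicate 2 to 16.4 for HSC replicate 2. Kit, of the sorting gate, scored 12.6 and 15.4 on the HSC arrays and 10.5 to 14.5 on the BCR-ABL arrays, and Ly6a (Sca-1) had no probe set of its own symbol. Of 35 further measured genes for other marrow cell types and stem cell surface markers, 0 stood at a score of 0 on any array, and with the direction unknown these scores check neither the gate nor the sort. Alox5 scored 14.4 and 13.5 in Alox5-/- LSC and 13.2 and 14.2 in LSC, which overlapped and check no label, since a probe set can lie outside the deleted part.

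The question was whether probe sets of the fusion partners responded when cells carried the construct. The mean of both BCR-ABL groups was compared with HSC by limma, fitted on all 34499 probe sets with values and adjusted over all of them by the Benjamini-Hochberg method, with a threshold of 0.05. None of the 4 probe sets passed. The HSC arrays came from wild-type donors, so the Alox5-/- LSC arrays in that mean differed from them in the construct and in Alox5. The construct and the loss of Alox5 cannot be told apart in those arrays, here or in Alox5-/- LSC against HSC. The BCR-ABL arrays and the HSC arrays overlapped for each of the 4, whereas they did not overlap for 15.8% of all probe sets. At an adjusted p under 0.05 limma called 0 of 34499 probe sets (0%), and at an unadjusted p under 0.05 there were 2155 (6.25%), of which 0 were members. In bulk samples, fewer cells of a type and less RNA per cell cannot be told apart, and this holds for every value below.

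**Figure D1:**
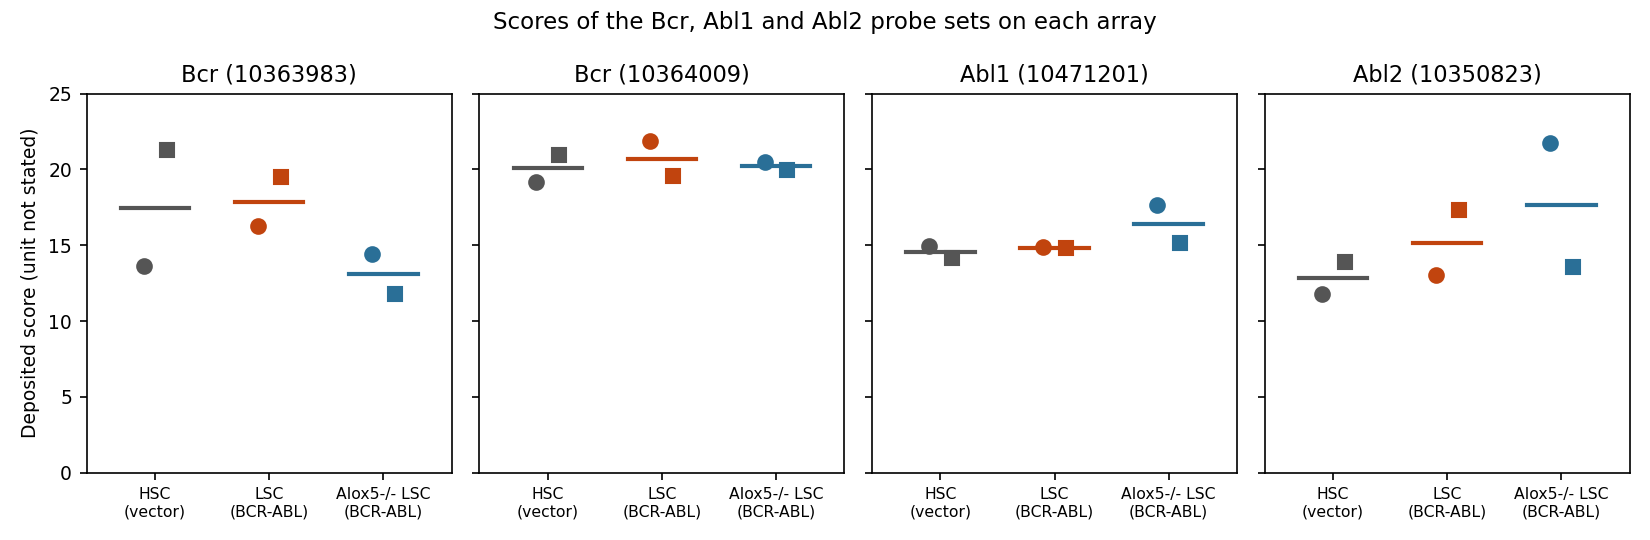
Deposited score (no unit stated) of the 4 probe sets on each of the 6 arrays, by group. Circles are replicate 1, squares replicate 2 and bars the mean of the 2 arrays. The BCR-ABL arrays and the HSC arrays overlap for each probe set. Alox5-/- LSC does not overlap HSC for Abl1, beside 35.7% of all probe sets. It does not overlap LSC for Bcr 10363983 and Abl1, beside 31.6% of all probe sets. Bcr 10363983 spreads from 11.8 to 21.3 while Bcr 10364009 stays between 19.2 and 21.8. Alox5-/- LSC replicate 1 is the highest array for Abl1 and Abl2.

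Bcr probe set 10363983 scored 13.6 and 21.3 in HSC, 16.3 and 19.5 in LSC and 14.4 and 11.8 in Alox5-/- LSC. The HSC arrays lay far apart, and 3 of the 4 BCR-ABL arrays fell between them. The lowest array, Alox5-/- LSC replicate 2, was below both HSC arrays. Group means were 17.4 ± 5.40 (SD, n = 2) for HSC, 17.9 ± 2.27 for LSC and 13.1 ± 1.86 for Alox5-/- LSC. BCR-ABL arrays minus HSC was -1.95 ± 2.36 (SE; 95% interval -7.74 to 3.84; limma adjusted p = 0.925). It was 1.87 without HSC replicate 2 and -5.76 without HSC replicate 1 (unadjusted limma p of 0.0318, adjusted p of 0.499), so its direction rested on the HSC arrays.

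The second Bcr probe set, 10364009, scored 19.2 and 20.9 in HSC, 21.8 and 19.6 in LSC and 20.5 and 20.0 in Alox5-/- LSC. All 6 arrays lay within 2.65 units of each other, and only LSC replicate 1 was above both HSC arrays. BCR-ABL arrays minus HSC was 0.397 ± 1.17 (SE; 95% interval -2.48 to 3.27; limma adjusted p = 0.977), and it turned to -0.484 when HSC replicate 1 was left out and to -0.171 when LSC replicate 1 was. Of the 2 probe sets of this gene the first had the wider spread. Its residual SD within groups was 3.55, at the 89.6th percentile of all probe sets, against 1.19, at the 36.5th percentile, for the second.

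The annotation ties both Bcr probe sets to the same RefSeq transcript. Which exons each reads is not given in the sources used here, so neither can be placed inside or outside the part of Bcr kept in the fusion. The score of 10364009 minus that of 10363983 was 5.57 and -0.302 in HSC, 5.58 and 0.0987 in LSC and 6.04 and 8.19 in Alox5-/- LSC. That quantity was 4.98 ± 3.45 (SD, n = 4) on the BCR-ABL arrays and 2.63 ± 4.15 (n = 2) on the HSC arrays. The difference of 2.35 gave p = 0.267 in a two-sided exact permutation test over 15 splits, whose smallest possible p is 0.133. This test was chosen after the values had been seen.

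Abl1, the tyrosine kinase partner, scored 14.96 and 14.15 in HSC, 14.9 and 14.8 in LSC and 17.6 and 15.1 in Alox5-/- LSC. Both LSC arrays lay between the HSC arrays, and both Alox5-/- LSC arrays lay above them. Alox5-/- LSC and HSC did not overlap for 35.7% of all probe sets. Group means were 14.6 ± 0.569 (SD, n = 2) for HSC, 14.8 ± 0.0487 for LSC and 16.4 ± 1.77 for Alox5-/- LSC. BCR-ABL arrays minus HSC was 1.05 ± 1.12 (SE; 95% interval -1.69 to 3.79; limma adjusted p = 0.910). The difference was 0.422 without Alox5-/- LSC replicate 1. Ranked within its array, Abl1 stood at percentiles 43.8 and 30.5 in HSC, 43.8 and 42.6 in LSC and 67.4 and 57.3 in Alox5-/- LSC.

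Abl2, the ABL family kinase outside the fusion, scored 11.8 and 13.9 in HSC, 13.0 and 17.3 in LSC and 21.7 and 13.6 in Alox5-/- LSC. In each BCR-ABL group 1 array lay within the HSC range and the other above it. Group means were 12.8 ± 1.47 (SD, n = 2) for HSC, 15.2 ± 3.03 for LSC and 17.7 ± 5.76 for Alox5-/- LSC. BCR-ABL arrays minus HSC was 3.56 ± 2.54 (SE; 95% interval -2.66 to 9.79; limma adjusted p = 0.858). This was the largest difference in size of the 4 probe sets, and 91.2% of all probe sets had a smaller one. Its residual SD of 3.85 was at the 91.9th percentile. Without Alox5-/- LSC replicate 1 the difference was 1.52, and without replicate 2 of that group it was 5.60 (unadjusted limma p of 0.0245, adjusted p of 0.797).

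**Figure D2:**
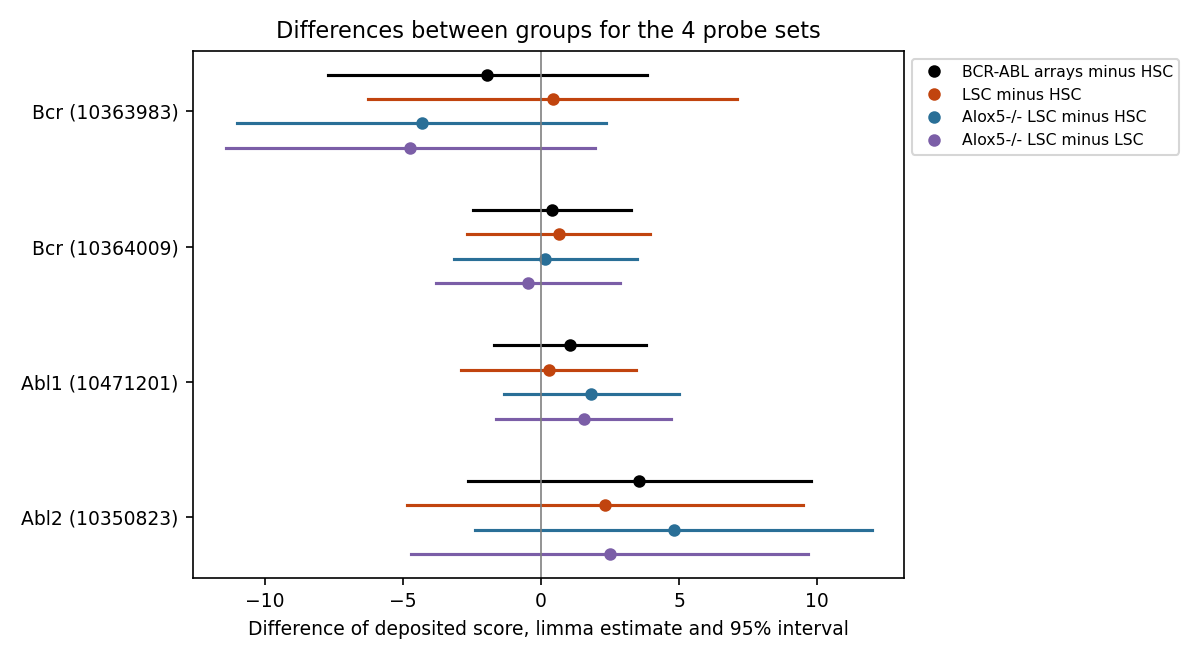
Differences of the deposited score between groups for the 4 probe sets, as limma estimates (points) with 95% intervals (lines). Colours mark the comparison. Each of the 16 intervals spans 0. The widest belong to Bcr 10363983 and Abl2, whose differences for BCR-ABL arrays minus HSC are -1.95 and 3.56.

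A two-sided exact permutation test over the 15 splits of 4 arrays against 2 gave p = 0.667 for Bcr 10363983, 0.800 for Bcr 10364009, 0.400 for Abl1 and 0.400 for Abl2. With a smallest possible p of 0.133 this test could not pass 0.05. The 95% intervals left room for differences from -1.69 to 3.79 units for Abl1 and from -2.66 to 9.79 units for Abl2. For scale, the median residual SD of all probe sets was 1.51 units.

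Scores were lower on the BCR-ABL arrays over the table as a whole, with a median difference of -0.552 and 34.6% of probe sets above 0. The size of this shift depended on single arrays. With 1 array left out it ran from -0.838 (without Alox5-/- LSC replicate 1) to -0.209 (without HSC replicate 2). Relative to the median of -0.552, the difference was -1.40 for Bcr 10363983, 0.949 for Bcr 10364009, 1.60 for Abl1 and 4.11 for Abl2. With each array centred on its median the differences were -1.27, 1.08, 1.73 and 4.24 in the same order. Thus each probe set kept its direction under both array scalings tried, centring and quantile normalization, and the smallest unadjusted limma p among them after centring was 0.106, for Abl2. Among all probe sets with an unadjusted p under 0.05, those with lower scores made up 80.2% as deposited and 53.3% after centring.

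**Figure D3:**
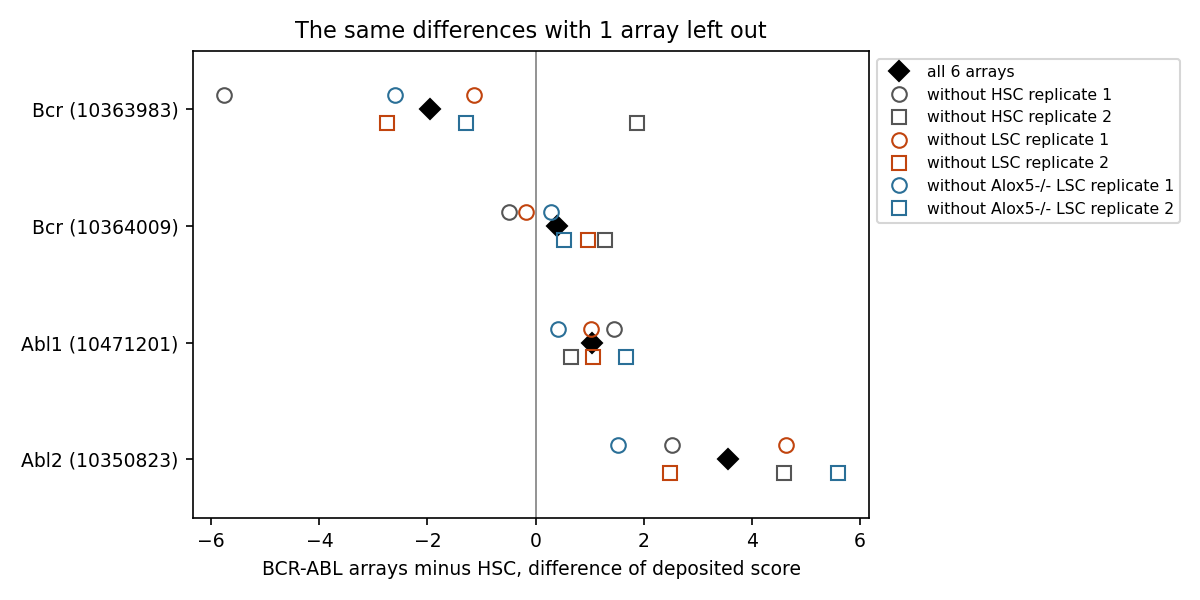
BCR-ABL arrays minus HSC for each probe set, with all 6 arrays (black diamonds) and with 1 array left out (open symbols, coloured by group; circles for replicate 1, squares for replicate 2). Bcr 10363983 ranges from -5.76 to 1.87 and Bcr 10364009 from -0.484 to 1.28. Abl1, from 0.422 to 1.67, and Abl2, from 1.52 to 5.60, stay above 0.

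Taken separately, LSC and Alox5-/- LSC were each compared with the same HSC arrays, so these values are not independent of each other. LSC minus HSC was 0.425 ± 2.73 (SE) for Bcr 10363983, 0.634 ± 1.35 for Bcr 10364009, 0.277 ± 1.29 for Abl1 and 2.32 ± 2.93 for Abl2, with limma adjusted p from 0.996 to 0.999. Alox5-/- LSC minus HSC was -4.32 ± 2.73 for Bcr 10363983, 0.159 ± 1.35 for Bcr 10364009, 1.82 ± 1.29 for Abl1 and 4.80 ± 2.93 for Abl2, with limma adjusted p from 0.810 to 0.987. Leaving out 1 array moved LSC minus HSC between -3.39 and 4.24 for Bcr 10363983, between -0.502 and 1.77 for Bcr 10364009, between -0.125 and 0.679 for Abl1 and between 0.179 and 4.46 for Abl2, whose lowest value came without LSC replicate 2. It moved Alox5-/- LSC minus HSC between -8.14 and -0.508 for Bcr 10363983, without HSC replicate 1 and 2 respectively. The same difference ran between -0.721 and 1.04 for Bcr 10364009, between 0.568 and 3.07 for Abl1 and between 0.727 and 8.88 for Abl2, with the lowest values of both kinases without Alox5-/- LSC replicate 1. The highest for Abl2 (without Alox5-/- LSC replicate 2) and the lowest for Bcr 10363983 had unadjusted limma p of 0.0120 and 0.0128 and adjusted p of 0.659 and 0.430. The groups did not overlap for 0 of the 4 members in LSC against HSC, beside 34.2% of all probe sets, and for 1, Abl1, in Alox5-/- LSC against HSC, beside 35.7%. Over all probe sets limma called 0 (0%) at an adjusted p under 0.05 in either comparison. At an unadjusted p under 0.05 there were 1704 (4.94%) for LSC against HSC and 2223 (6.44%) for Alox5-/- LSC against HSC, with 0 members in each. The first count was 2630 without HSC replicate 1.

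Alox5-/- LSC against LSC compares BCR-ABL cells with and without Alox5, which both carried the construct. The difference was -4.75 ± 2.73 (SE; 95% interval -11.4 to 1.94) for Bcr 10363983, whose Alox5-/- LSC arrays both lay below both LSC arrays. It was -0.475 ± 1.35 for Bcr 10364009, 1.54 ± 1.29 for Abl1, whose Alox5-/- LSC arrays both lay above both LSC arrays, and 2.48 ± 2.93 for Abl2, whose arrays overlapped. Such groups of 2 arrays did not overlap for 31.6% of all probe sets, and for 2 of the 4 members. Each limma adjusted p was 1.00. Without Alox5-/- LSC replicate 1, Abl2 was -1.59 and Abl1 was 0.291. Without replicate 2 of that group, Abl2 was 6.56 (unadjusted limma p of 0.0359, adjusted p of 0.783) and Abl1 was 2.79. Bcr 10364009 was 0.662 without LSC replicate 1 and -1.61 without LSC replicate 2. Bcr 10363983 ran from -6.35 to -3.14 with 1 array left out. With its difference still at -4.75, its unadjusted limma p was 0.0418 when only these groups were fitted and 0.0417 without either HSC array, with adjusted p of 1.00. Over all probe sets, 0 (0%) passed at an adjusted p under 0.05 and 1365 (3.96%) had an unadjusted p under 0.05, with 0 members when all 6 arrays were fitted. Without Alox5-/- LSC replicate 2 that count was 2144.

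Alox5-/- LSC replicate 1 was the highest of the 6 arrays for both ABL kinases. After centring each array, the scores of Abl1 and Abl2 had a Pearson r of 0.724 over the 6 arrays, and those of the 2 Bcr probe sets had r = -0.159. Abl1 and Bcr 10363983 had r = -0.728. These describe 6 arrays that share 1 scale per array, with no test.

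The genes whose centred scores followed each probe set most closely over the 6 arrays were named by Pearson r among 21600 other probe sets with 1 symbol. For Bcr 10363983 they were Fyttd1, an mRNA export adaptor, Lax1, a lymphocyte adaptor, and Zfp711, a zinc finger gene, with r of 0.987, 0.984 and 0.981. For Bcr 10364009 they were Gpr63, Fgf3 and Amh (0.993, 0.992 and 0.989). For Abl1 they were the probe set of Mir99b (0.998), Gskip, a GSK3-binding protein (0.998), and Nfia, a transcription factor (0.996). For Abl2 they were Zswim2, Tm6sf1 and Cavin4 (0.995, 0.995 and 0.991). Each of the genes named for Abl1 and Abl2 scored highest on Alox5-/- LSC replicate 1, as did Abl1 and Abl2 themselves. How far these r rest on that array was not tested. With 6 arrays such values of r are common. Between 142 and 293 probe sets had r above 0.9 with each member, and neither Bcr probe set was among the 3 closest to the other.

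Genes that work with BCR and ABL were read in 6 lists holding 93 genes, of which 81 had probe sets with 1 symbol (84 probe sets). The other 12 were not analysed here. In BCR-ABL arrays against HSC, 0 of the 84 passed at an adjusted p under 0.05 by limma. At an unadjusted p under 0.05, 0 had higher and 1 had lower scores on the BCR-ABL arrays. Of the 21601 probe sets with 1 symbol, 132 had higher and 1031 had lower scores at that p, and of all probe sets 1.23% and 5.01%. The median difference of the 84 was -0.484, and 33 of them lay above 0. Over the probe sets with 1 symbol the median was -0.601, and 6840 lay above 0.

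**Figure D4:**
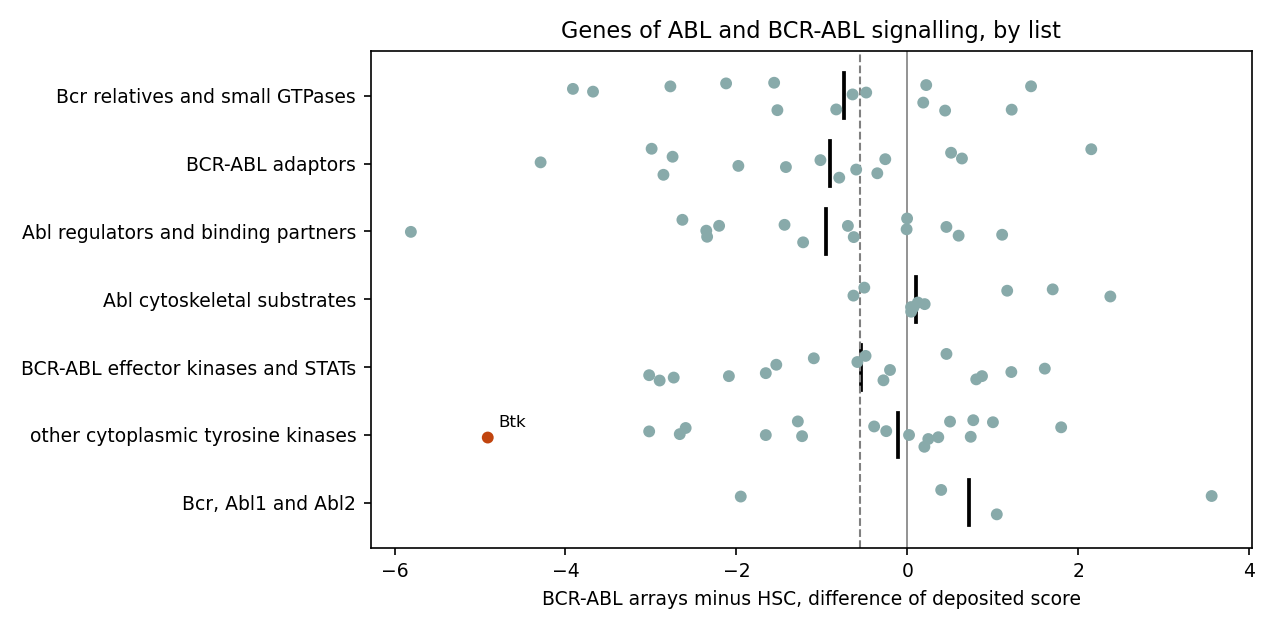
BCR-ABL arrays minus HSC for each probe set of the 6 lists and for the 4 probe sets of Bcr, Abl1 and Abl2 (bottom). Points are probe sets, coloured red where the unadjusted limma p is under 0.05, short black lines are list medians, and the dashed line is the median of all probe sets (-0.552). Btk, at -4.91, is the only red point.

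Among relatives and partners of Bcr, small GTPases and their regulators (14 probe sets), 0 had an unadjusted p under 0.05 and the median difference was -0.736. Further genes are named here for their role, chosen after their values were seen. Abr, the closest relative of Bcr, differed by 0.187 ± 1.52 (SE), and Rac1, Rac2 and Rac3, the Rac GTPases, by 0.222, -0.832 and -3.68. Rac3 stood at 17.6 and 23.2 on the HSC arrays and between 16.6 and 16.9 on the BCR-ABL arrays, so the HSC arrays lay above all others (limma adjusted p = 0.801).

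Adaptors that bind BCR-ABL (14 probe sets) had a median difference of -0.906 and 0 at an unadjusted p under 0.05. Grb2, which couples the fusion to Ras, differed by 0.513 ± 1.67 (SE), Gab2, the docking protein it recruits, by -1.02 ± 1.07, and Crkl, a prominent BCR-ABL substrate, by -1.98 ± 1.56. Regulators and binding partners of ABL (14 probe sets) had a median of -0.957 and 0 at that p, with the ABL interactor Abi1 at -0.626 and the ABL activator Rin1 at -1.44. Cytoskeletal substrates (10 probe sets) had a median of 0.0982, with 8 above 0 and 0 at that p. Effector kinases and STATs (16 probe sets) had a median of -0.536 and 0 at that p, with Stat5a at 1.22 ± 1.19, Stat5b at -2.73 ± 1.62 and the cytokine receptor kinase Jak2 at -3.02 ± 1.63.

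Other cytoplasmic tyrosine kinases (18 probe sets), the wider family of Abl1 and Abl2, had a median difference of -0.113, with 9 above 0 and 1 at an unadjusted p under 0.05. That 1 was Btk, the kinase downstream of the B cell receptor. It scored 15.4 and 18.4 in HSC, 10.8 and 12.9 in LSC and 13.3 and 10.9 in Alox5-/- LSC, so both HSC arrays lay above all BCR-ABL arrays. The difference was -4.91 ± 1.43 (SE; limma adjusted p = 0.752) and -4.23 after centring. It did not pass correction over all probe sets, and without HSC replicate 2 it was -3.37 with an unadjusted limma p of 0.101. Of the B cell markers, 4 had probe sets, and 0 stood at 0. Of the 4, Cd79a had a lower score at an unadjusted limma p under 0.05 (adjusted p of 0.727), beside 5.01% of all probe sets. The summed score of the 4 B cell markers was 64.9 and 75.5 on the HSC arrays and 52.4 to 59.5 on the BCR-ABL arrays. Cd79a, a chain of the B cell receptor complex, had the largest difference of the 4, at -11.6. It scored 23.7 and 28.2 in HSC and 11.5 to 16.9 on the BCR-ABL arrays. The other 3 markers summed to 41.1 and 47.3 in HSC and 40.3 to 44.4 on the BCR-ABL arrays, which overlapped. Among them Ms4a1 (-2.48) and Pax5 (-1.05) also had lower scores, and Cd79b differed by 1.03 in the opposite direction. Ms4a1 scored 14.6 and 17.1 in HSC and 12.9 to 14.1 on the BCR-ABL arrays. Those groups did not overlap, which held for 15.8% of all probe sets. Genes of other marker lists also had an unadjusted limma p under 0.05, in both directions, and are named here for that p. Slamf1 (4.38), Rhag (6.69) and Itga2b (3.40) had higher scores, and Cd34 (-3.45) and Klf1 (-2.91) had lower ones. Rhag differed between the BCR-ABL groups, at 25.7 and 21.2 in LSC and 12.2 and 17.3 in Alox5-/- LSC. On the HSC arrays it scored 11.6 and 13.2. None of the markers passed at an adjusted p under 0.05. The part of B cells in the Btk value was not tested.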

How the data were processed

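The submitters' processing notes name Affymetrix Expression Console 1.1 together with RMA, and per the labels' protocols 100 to 300 ng of total RNA was amplified, biotin-labelled and hybridised. The authors deposited 1 score per probe set and array, with no unit, build or step order given in the sources used here. The table lists 35557 probe sets, 1058 of them without a value on any array. Symbols came from the platform annotation, and of the 34499 probe sets tested 21601 had 1 symbol, 1265 several and 11633 none. Positions and promoter sequences came from RefSeq tables of GRCm38.p6, where all 3 genes were matched.

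The scores were fitted as deposited with limma 3.58.1 in R 4.3.3, with a mean per group, a shared spread (3 residual degrees of freedom) and a prior variance that followed the mean. Tests were two-sided. Groups came from the titles, and the number of arrays limits the precision. The titles' replicate numbers mark no stated batch, and no pairing was used. The 4 probe sets, the lists and the tests were chosen with earlier results of these data known. Named were the 4 probe sets, list genes with an unadjusted p under 0.05 in BCR-ABL arrays against HSC, the 3 probe sets closest to each member by Pearson r, and Kit, Ly6a and Alox5. Genes named outside that rule are marked as such, are cell type markers or serve as checks of the score. Alternatives were centring, quantile normalization, log2(score + 1), leaving out the lowest 25% of mean scores, 1 probe set per gene, no variance trend, only the groups compared, a replicate block and leaving out each array.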

Additional observations from a re-analysis of the deposited data

Results flagged for a closer look

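Abl1 on Alox5-/- LSC replicate 1 scored 17.6, far from the other BCR-ABL arrays at 14.8 to 15.1. The gap to the nearest of them was 0.885 of the range of the 4 BCR-ABL arrays, above Dixon's critical value at the 95% level for 4 samples. These 4 arrays come from 2 groups, and chance gives such a gap in about 5% of such sets. The same array was the highest for Abl2, at 21.7. Without it, BCR-ABL arrays minus HSC was 0.422 for Abl1 and 1.52 for Abl2.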

How the results depend on the processing

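Over 4 comparisons and 4 probe sets, 216 alternative values were computed. In 96 of them the difference could not change (filters on other probe sets, the variance model, the block, fitting only the groups compared, or leaving out an array outside the comparison). Of the other 120, 108 kept their direction and 12 changed sign. None of the 216 passed an adjusted p under 0.05, and 8 had an unadjusted p under 0.05, against 0 with all 6 arrays in the fit as deposited. All 12 changes of sign came from leaving out 1 array. For BCR-ABL arrays minus HSC, Bcr 10363983 then ran from -5.76 to 1.87 and Bcr 10364009 from -0.484 to 1.28. For LSC minus HSC, Bcr 10363983 ran from -3.39 to 4.24, Bcr 10364009 from -0.502 to 1.77 and Abl1 from -0.125 to 0.679. For Alox5-/- LSC minus HSC, Bcr 10364009 ran from -0.721 to 1.04. For Alox5-/- LSC minus LSC, Bcr 10364009 ran from -1.61 to 0.662 and Abl2 from -1.59 to 6.56. The 8 at an unadjusted p under 0.05 belonged to Abl2 without Alox5-/- LSC replicate 2 and to Bcr 10363983 without an HSC array or with only the groups compared, and the smallest was 0.0120.

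With 1 probe set per gene, which also left out probe sets with several symbols or none and so tested 19934, the count at an unadjusted p under 0.05 was 1301 (6.53%) for BCR-ABL arrays against HSC, 939 (4.71%) for LSC against HSC, 1392 (6.98%) for Alox5-/- LSC against HSC and 678 (3.40%) for Alox5-/- LSC against LSC. Leaving out 1 array moved it between 1345 and 2630 for LSC against HSC and between 1211 and 2144 for Alox5-/- LSC against LSC. A replicate block left each member's difference as it was (-1.95, 0.397, 1.05 and 3.56 for BCR-ABL arrays minus HSC), since each number occurs once in every group, and gave 1908 probe sets at that p. Deviations of same-numbered arrays correlated at -0.0476 to -0.0250, so no shift shared by same-numbered arrays was seen. Such values cannot show whether those samples were handled together. Bcr 10363983 has no value with 1 probe set per gene, where 10364009 was kept.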
